A study of Homo sapiens with 8 samples.

Results

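The nuclear-encoded genes of oxidative phosphorylation were followed by RNA sequencing in HS578T cells that overexpressed the transcription factor HSF2, were exposed to TGF-β1, or both. Members were the protein-coding rows of the gene count table whose symbol begins with NDUFA, NDUFB, NDUFC, NDUFS, NDUFV, UQCR, ATP5 or COX4 to COX8, together with SDHA, SDHB, SDHC, SDHD and CYC1. This name rule took 99 of 60708 genes, or 99 of the 19984 protein-coding ones, and used no measured value. Of the 99, 78 encode subunits that are generally present (37 of complex I, 4 of complex II, 9 of complex III, 11 of complex IV and 17 of complex V). The rest are 8 complex I assembly factors (NDUFAF1 to NDUFAF8), 9 isoforms or copies of a subunit, 2 read-through genes, the supercomplex factor COX7A2L and the ATP synthase inhibitor ATP5IF1. The 13 subunits encoded in mitochondrial DNA are not among them and are given only for comparison.

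Oxidative phosphorylation takes place at the inner mitochondrial membrane. Complexes I and II pass electrons from NADH and succinate to ubiquinone, complex III passes them to cytochrome c, and complex IV passes them to oxygen. The protons pumped on the way drive complex V, the ATP synthase. Complexes I, III, IV and V join nuclear-encoded subunits to mitochondrially encoded ones, whereas complex II is nuclear throughout. In many cell types the nuclear genes are known targets of NRF1, of GABPA and of coactivators of the PGC-1 family, and TFAM is known to activate transcription of mitochondrial DNA.

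HS578T is an established human breast cancer line, labelled as epithelial. All cells were transfected with 25 µg of plasmid, encoding either green fluorescent protein (Mock) or exogenous HSF2 (HSF2oe). Starting 24 h later they were held for 24 h in assay medium without TGF-β1 (control) or with TGF-β1 at 10 ng/ml, a cytokine that signals through SMAD factors (TGF-β). This gave 4 groups of 2 libraries, which the design text calls biological replicates: Mock control, Mock TGF-β, HSF2oe control and HSF2oe TGF-β. The controls thus also carry a plasmid, and the share of cells that took it up is not given in the labels. A separate treatment label names DMSO for all Mock libraries and TGF-β1 for all HSF2oe libraries, so the groups follow the titles and the design text.

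Total counts ran from 17427645 to 34336107 per library, and the members took 0.443% to 0.576% of them. HSF2 stood at 5.4 to 8.36 CPM (counts relative to the TMM-adjusted library total) in the 4 Mock libraries and at 489 to 937 CPM in the 4 HSF2oe libraries. All 7 mesenchymal markers passed the low-count filter, with summed levels of 37567 to 74509 CPM, whereas the 8 luminal epithelial markers summed to 209 to 303 CPM and 1 of them, PGR, was at 0 in every library. Markers of blood (1.66 to 5.62 CPM summed, with CD3E, HBA1 and HBB at 0), of endothelium (3.07 to 5.46 CPM) and of muscle and liver (0.112 to 0.492 CPM) were near 0. The luminal sum was 272 to 303 CPM in Mock and 209 to 247 CPM in HSF2oe libraries and the blood sum 3.35 to 5.62 and 1.66 to 3.75 CPM. The mesenchymal sum, mostly FN1 (36010 CPM on average), was 38608 to 74509 CPM in Mock and 37567 to 54429 CPM in HSF2oe libraries. The luminal sum is mostly KRT18 (228 CPM on average). With HSF2oe on average, KRT18 fell by 0.43 ± 0.08 and KRT8 by 0.37 ± 0.09, whereas GATA3 rose by 0.77 ± 0.10, from 7.58 to 8.27 CPM in Mock to 11.9 to 15.2 CPM in HSF2oe libraries (adjusted p = 0.00115, 0.00542 and 1.37e-04, edgeR), and of 3 tested blood markers 2 fell and 0 rose. Of the 7 mesenchymal markers, 2 rose and 2 fell with HSF2oe on average (15.2% and 17.3% of all genes). Among them CD44 had 0.48 ± 0.08 and SPARC -1.02 ± 0.11 on the log2 scale. The part of all these markers in the HSF2oe comparisons was not tested. In bulk RNA, a change in the number of cells that express a gene and a change in RNA per cell cannot be told apart.

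The low-count filter passed 91 of the 99 members, including all 78 subunits. Levels per length are given as TPM, the share of a transcript in all transcripts after division by length, averaged over the 8 libraries. Median TPM of the subunits was 39.6 for complex I, 48.9 for complex II, 97.9 for complex III, 164 for complex IV and 80.2 for complex V, against 11.4 for the 8 assembly factors. The highest level belonged to ATP5F1B, the catalytic β subunit of ATP synthase, at 989 TPM. Within the other complexes the highest were COX8A in complex IV at 873 TPM, NDUFS5 in complex I at 620 TPM, CYC1, the cytochrome c1 subunit of complex III, at 388 TPM, and SDHB, the iron-sulfur subunit of complex II, at 128 TPM. The lowest subunits were NDUFA7 in complex I (1.08 TPM), SDHA in complex II (14.4 TPM), UQCRB in complex III (36.7 TPM), COX7B in complex IV (42.9 TPM) and ATP5MJ in complex V (25.5 TPM). These orders depend on the gene lengths in the count table, which join the exons of all transcripts. Without division by length, NDUFB9, UQCRC1 and COX4I1 had the most counts in complexes I, III and IV, and SDHD, UQCR11 and ATP5ME the fewest in complexes II, III and V.

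**Figure D1:**
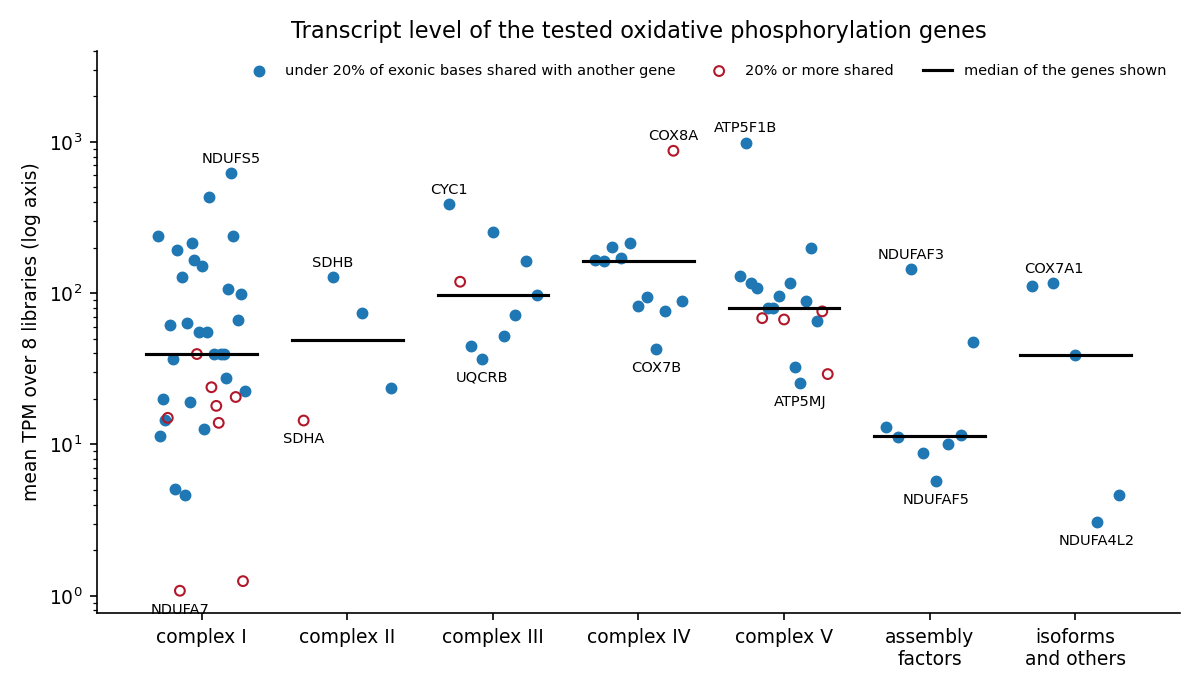
Mean TPM over 8 libraries (log axis) of each tested gene, by complex or class; black bars are medians and open red circles mark genes that share 20% or more of their exonic bases with another gene. Complex IV subunits have the highest median (164 TPM) and the assembly factors the lowest (11.4 TPM).

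Most tissue isoforms were scarce in these cells, and COX7A1 was not. COX4I2, COX6A2 and COX8C, known from lung, muscle and testis, had no count in any library, so each library allows at most 3 counts, or 0.0874 to 0.172 CPM of its total count. COX7B2 had 35 counts over all libraries, COX6B2 22 and ATP5MGL 1, and the read-through genes ATP5MF-PTCD1 and NDUFC2-KCTD14 had 14 and 6. COX7A1, the isoform best known from heart and skeletal muscle, averaged 116 TPM, next to 94.9 TPM for COX7A2, its widely expressed counterpart. Without division by length COX7A1 was the lower, at 16.5 against 44.1 CPM. UQCRHL, a near-identical copy of UQCRH, stood at 4.62 TPM against 164 TPM, and reads of such a pair can be split uncertainly by alignment.

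Counting limits touch some members more than others. Per the file header, read pairs were counted without regard to strand and without an option to share a pair between overlapping genes, and 19 members share 20% or more of their exonic bases with another gene (15 of them tested). ATP5ME shared 61.3% (with MYL5), NDUFS7 51.4%, NDUFB8 48.5%, ATP5PF 37.3% (mostly with GABPA), NDUFB2 35.9% (mostly with BRAF), COX8A 35.4% and NDUFA7 32.5%. NDUFA7 and NDUFV2, a core subunit of complex I, had only 2 to 24 and 11 to 34 counts per library, NDUFV2 sharing 28.4% of its exonic bases. Pseudogenes named after members took few counts in all (0.324% of the members' counts), but the SDHA pseudogenes held 2189 counts against 6625 for SDHA, and NDUFV2P1 133 against 178 for NDUFV2. The levels of these genes are therefore uncertain, and how much of a difference between groups such reads carry was not tested.

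Promoter sequences (250 bases before to 50 after the start) were matched from RefSeq on GRCh38.p14 for 78 of the 99 members. A gene counts if any promoter listed for it holds the letters, and the number listed differs between genes. The NRF1 motif GCGCNTGCG, read on both strands, occurred in 26 of the 78 (33.3%), against 16.7% of 10395 tested protein-coding genes and 9.01% of 27305 genes with a promoter in the table. The motif of ETS factors such as GABPA, CCGGAAG, occurred in 23 (29.5%, against 22.3% and 12.2%) and that of YY1, AAGATGGC, in 13 (16.7%, against 6.4% and 3.52%). At least 1 of these 3 was present in 48 members (61.5%), compared with 38.5% of the tested protein-coding genes and 21.5% of all. By complex, NRF1 letters occurred in 12 of 40 complex I genes, 2 of 3 of complex II, 4 of 7 of complex III, 2 of 14 of complex IV and 6 of 14 of complex V. A pair of inverted heat shock units, TTCNNGAA, the core of the element bound by heat shock factors, occurred in 6 (7.69%, against 8.51% and 9.46%), and the SMAD palindrome GTCTAGAC in 0 (against 0.173% and 0.256%). The hypoxia response element core, ACGTG, was found in 19 (24.4%, against 32.2% and 24.9%), and the E-box CACGTG, which contains those letters, in 8 (10.3%, against 12.5% and 8.77%). These are matches of letters in a fixed window and describe the promoters only.

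The promoters below belong to 4 members whose transcripts passed a test in the comparisons that follow, and show what such matches look like. They were chosen after the values were seen, and each holds a match. Other members called below, NDUFAF2, NDUFAF3, NDUFAF7, NDUFAB1 and ATP5IF1, had none of the 3 motifs. Capitals mark the NRF1 letters (in NDUFA5 158 bases before the start, and on the opposite strand at 4 places in SDHA) or the ETS letters (NDUFAF4 and COX5B, in the latter at 2 places). NDUFA5 lies at chr7:123557769-123558068 on the minus strand (the second of 3 promoters listed), SDHA at chr5:218070-218369 on the plus strand, NDUFAF4 at chr6:96897842-96898141 on the minus strand and COX5B at chr2:97645812-97646111 on the plus strand.
NDUFA5: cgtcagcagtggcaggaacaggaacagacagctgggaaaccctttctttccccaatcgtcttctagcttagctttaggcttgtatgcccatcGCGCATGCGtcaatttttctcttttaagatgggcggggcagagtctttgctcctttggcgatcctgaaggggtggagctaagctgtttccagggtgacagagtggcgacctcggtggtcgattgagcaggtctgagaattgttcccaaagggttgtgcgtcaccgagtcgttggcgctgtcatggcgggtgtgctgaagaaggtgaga
SDHA: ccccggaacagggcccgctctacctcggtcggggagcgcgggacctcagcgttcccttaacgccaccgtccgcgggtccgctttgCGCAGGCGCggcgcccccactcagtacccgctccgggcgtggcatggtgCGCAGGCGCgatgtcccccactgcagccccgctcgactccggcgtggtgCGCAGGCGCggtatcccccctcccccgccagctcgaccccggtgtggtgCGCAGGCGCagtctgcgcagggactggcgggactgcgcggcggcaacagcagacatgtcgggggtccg
NDUFAF4: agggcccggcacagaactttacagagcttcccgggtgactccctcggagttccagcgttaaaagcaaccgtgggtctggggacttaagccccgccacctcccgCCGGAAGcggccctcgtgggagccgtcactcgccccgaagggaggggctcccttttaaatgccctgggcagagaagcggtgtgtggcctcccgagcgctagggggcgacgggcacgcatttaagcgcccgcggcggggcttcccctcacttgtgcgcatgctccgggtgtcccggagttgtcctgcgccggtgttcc
COX5B: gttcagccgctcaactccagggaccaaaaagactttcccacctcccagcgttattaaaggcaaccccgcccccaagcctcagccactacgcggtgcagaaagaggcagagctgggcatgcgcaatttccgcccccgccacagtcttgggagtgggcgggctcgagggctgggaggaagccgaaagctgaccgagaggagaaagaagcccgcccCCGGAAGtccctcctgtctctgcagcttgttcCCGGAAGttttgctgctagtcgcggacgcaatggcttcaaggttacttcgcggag
In SDHA the marked letters recur at 165, 116, 67 and 18 bases before the start, each time as CGCAGGCGC, the reverse complement of a sequence that fits GCGCNTGCG.

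Across the 4 groups, the summed level of the 78 subunit transcripts moved little after TMM scaling. It was 5150 and 4864 CPM in Mock control, 5095 and 4887 CPM in Mock TGF-β, 4522 and 4784 CPM in HSF2oe control and 4865 and 4913 CPM in HSF2oe TGF-β. The HSF2oe control libraries were the lowest pair, and in complexes I, III, IV and V both lay below both Mock control libraries. For complex IV the sums were 837 and 779 CPM in Mock control and 704 and 755 CPM in HSF2oe control, and for complex V 1806 and 1703 against 1587 and 1660 CPM. That order rests on the TMM scaling: as a share of all counts, the members took 0.576% and 0.529% in Mock control and 0.531% and 0.56% in HSF2oe control, which overlap. Without that scaling the TGF-β libraries were lower within each kind of cell. The members took 0.475% and 0.443% of counts in Mock TGF-β and 0.501% and 0.524% in HSF2oe TGF-β. Sums were not tested.

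**Figure D2:**
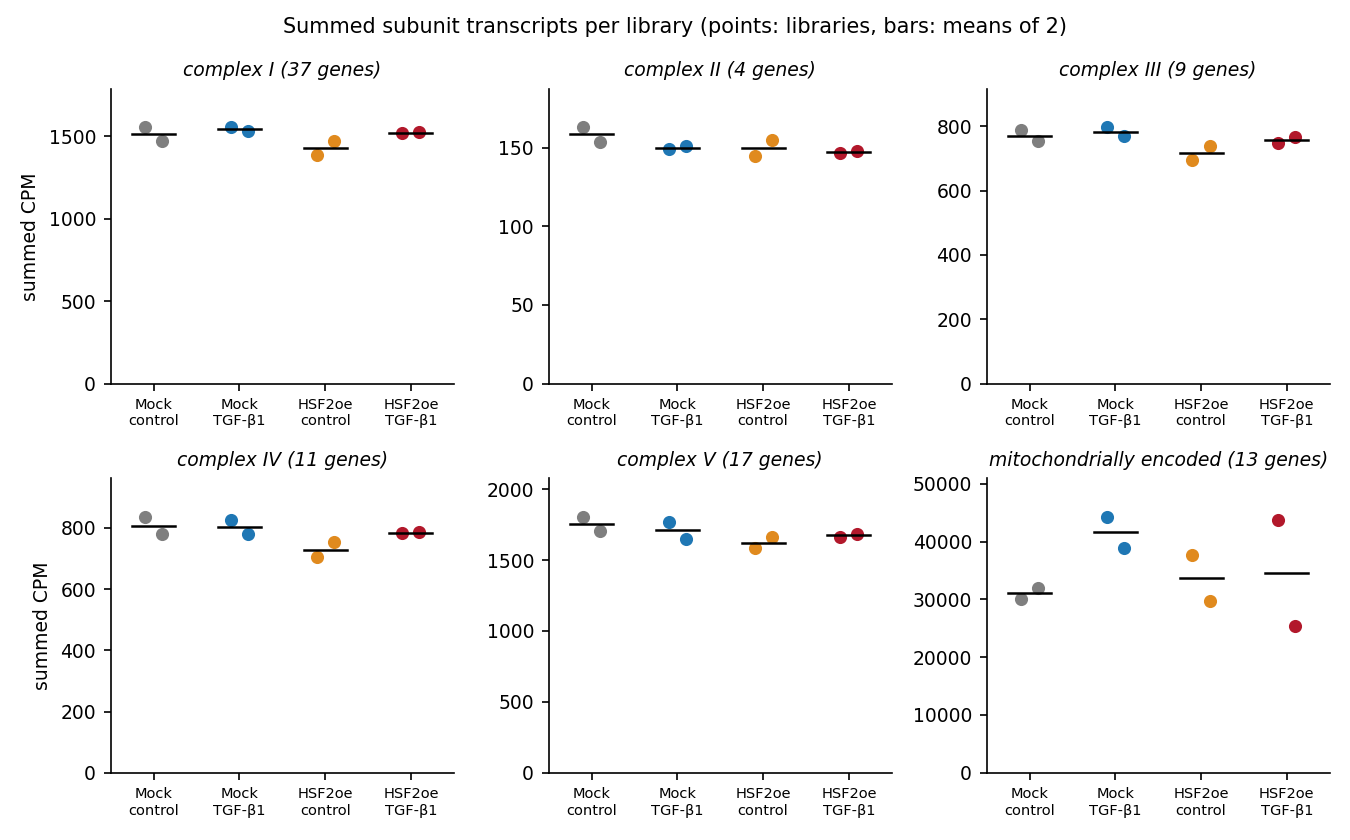
Summed CPM (vertical axes from 0) of the subunits of each complex and of the 13 mitochondrially encoded subunits, in every library; points are libraries and bars means of 2. After TMM scaling the nuclear sums differ little between groups. The mitochondrially encoded sum ranges from 25365 to 44333 CPM, with the widest gap between the 2 HSF2oe TGF-β libraries.

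The members' fold changes were also small next to those of other genes. A log2 fold change under 0.25 in size was found for 91.2% of members with TGF-β in Mock cells (52.5% of all 16008 genes tested), 93.4% in HSF2oe cells (58.5%), 86.8% with HSF2oe in control medium (51.9%) and 85.7% with HSF2oe under TGF-β (43.4%). Part of this gap goes with expression level: among genes of at least 10 CPM, the shares were 94%, 94%, 91.6% and 92.8% of 83 members and 65.7%, 73.3%, 65.9% and 53.9% of 8668 genes. The comparisons share libraries, since Mock control enters both the TGF-β comparison in Mock and the HSF2oe comparison in control medium, and likewise for the other groups.

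**Figure D3:**
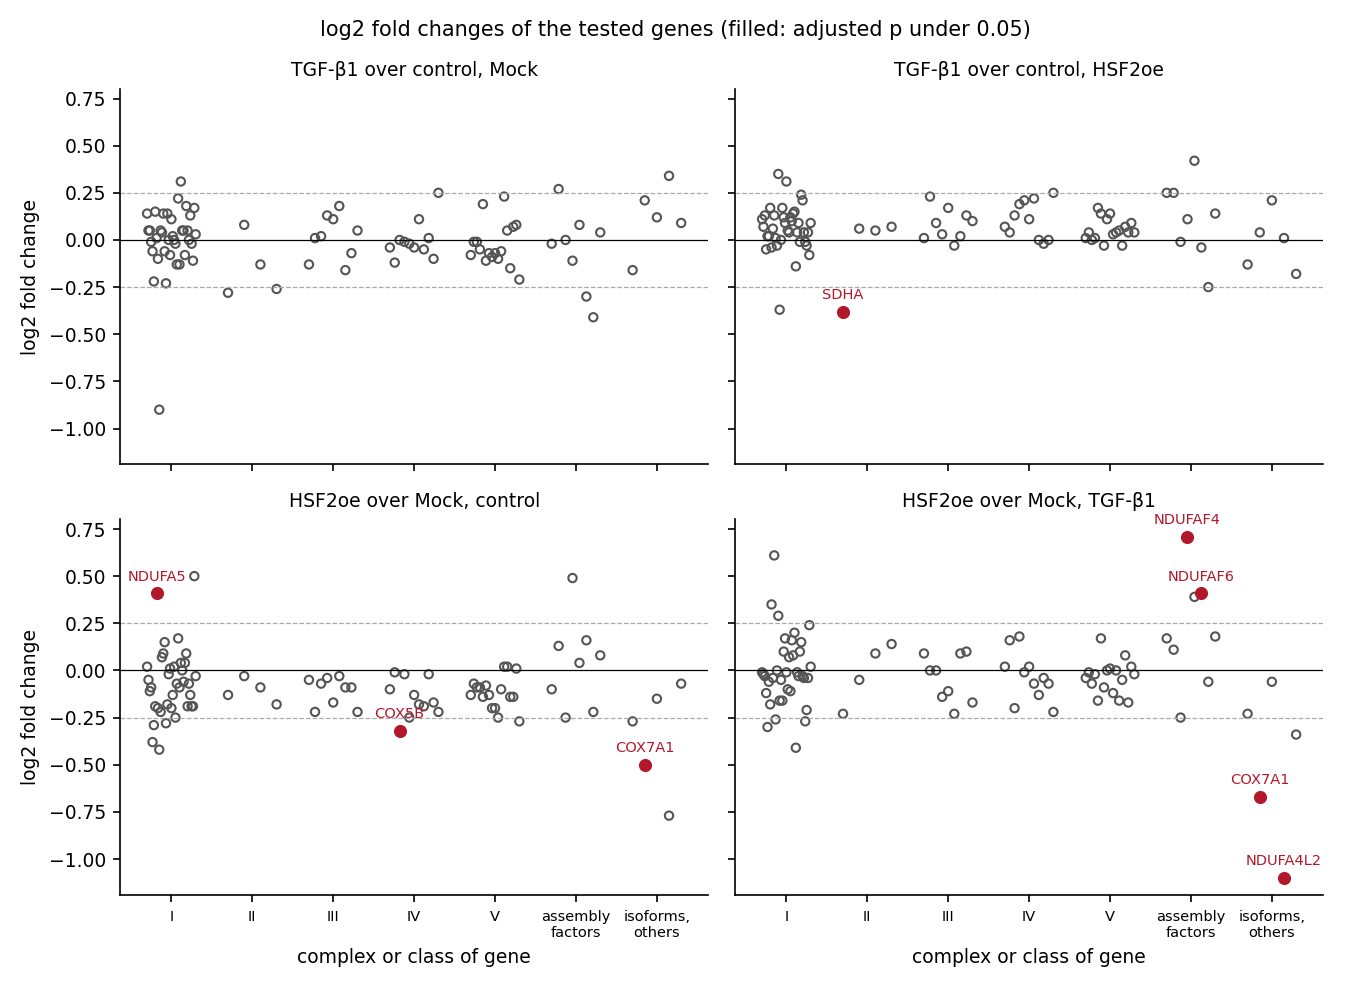
log2 fold changes of the 91 tested members (vertical axis) by complex or class in the 4 comparisons; filled red points passed the adjusted p threshold of 0.05 and dashed lines mark 0.25 in either direction. Most points lie between the dashed lines in every panel.

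TGF-β in Mock cells changed no member past the threshold: 0 of 91 rose and 0 fell by edgeR's quasi-likelihood test, adjusted over all genes by the Benjamini-Hochberg method, where 7.32% of all genes rose and 6.50% fell. DESeq2 also called 0 (7.53% of the 16008 genes rose and 6.14% fell). In edgeR, 6 of 91 members had an unadjusted p below 0.05, against 4090 of 16008 genes. The median log2 fold change of the members was -0.00, as for all genes. Scaling by library totals alone moved the median of all genes to -0.27 and that of the members to -0.27. It called 26 members and 24.3% of all genes lower. With the replicate number as a block some members also passed, while calls over all 16008 genes went from 2212 to 3350.

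In HSF2oe cells, TGF-β lowered 1 member, SDHA, and raised 0 of 91 (3.82% of all genes fell and 4.45% rose). SDHA is the flavoprotein that oxidises succinate in complex II. It measured 35.5 and 35 CPM in Mock control, 27.3 and 30.4 CPM in Mock TGF-β, 32.6 and 31.6 CPM in HSF2oe control and 25.1 and 24.3 CPM in HSF2oe TGF-β. In both kinds of cell the TGF-β libraries lay below the control libraries without overlap. The log2 fold change was -0.38 ± 0.10 (SE, n = 2 libraries a group; adjusted p = 0.0324, edgeR's quasi-likelihood test) in HSF2oe and -0.28 ± 0.10 (adjusted p = 0.086, same test) in Mock. The call in HSF2oe cells was lost without either Mock control library, either HSF2oe control library or either HSF2oe TGF-β library (adjusted p from 0.0501 to 0.195, edgeR). SDHA lies on chromosome 5 at 218241 to 257082 (plus strand) and shares 21.6% of its exonic bases with CTD-2546F11.1.

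Averaged over Mock and HSF2oe cells, TGF-β changed 5 of 91 members: 3 rose (10.1% of all genes did) and 2 fell (10.0%). The fall of SDHA was -0.33 ± 0.07 (adjusted p = 0.00423, edgeR's quasi-likelihood test) and held in each of 15 alternatives. Its partners in complex II did not pass: SDHB, which carries the iron-sulfur clusters, had 0.07 ± 0.07 on the log2 scale, and the membrane anchors SDHC and SDHD had -0.04 ± 0.08 and -0.09 ± 0.09. NDUFA4, once counted with complex I and now known as a subunit of complex IV, rose by 0.25 ± 0.07 (adjusted p = 0.019). NDUFA4 measured 76.4 and 69.4 CPM in Mock control, 85.5 and 87.7 CPM in Mock TGF-β, 59.9 and 65.1 CPM in HSF2oe control and 72.7 and 75.5 CPM in HSF2oe TGF-β, so the TGF-β libraries were higher within each kind of cell. Its call was lost without Mock control replicate 2, Mock TGF-β replicate 2, HSF2oe control replicate 1 or HSF2oe TGF-β replicate 2 (adjusted p from 0.0643 to 0.0849, edgeR), and with library totals alone it was 0.03.

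NDUFAF7, a methyltransferase that acts in complex I assembly, fell by 0.33 ± 0.10 in the same average. It measured 11.9 and 12.4 CPM in Mock control against 8.27 and 9.94 CPM with TGF-β, and 10.9 and 10 CPM in HSF2oe control against 8.9 and 8.65 CPM, with no overlap in either pair of groups. NDUFAB1, the mitochondrial acyl carrier protein that also sits in complex I, rose by 0.25 ± 0.08, with 21.5 and 20.2 CPM in Mock control, 24.6 and 21.6 CPM in Mock TGF-β, 23.3 and 21.1 CPM in HSF2oe control and 29 and 27.5 CPM in HSF2oe TGF-β. NDUFAF2, a chaperone of late complex I assembly, rose by 0.26 ± 0.09, from 16.2 to 18.8 CPM in the 4 control libraries to 19.1 to 22.8 CPM in the 4 TGF-β libraries. By edgeR's test the adjusted p-values of NDUFAF7, NDUFAB1 and NDUFAF2 were 0.0331, 0.0444 and 0.0484, and DESeq2 called none of them (adjusted p = 0.0658, 0.0737 and 0.082). All of these calls rest on few libraries: that of NDUFAB1 was lost without any library other than Mock TGF-β replicate 2 (adjusted p up to 0.164), that of NDUFAF2 without any other than HSF2oe TGF-β replicate 2 (up to 0.197) and that of NDUFAF7 without any other than Mock TGF-β replicate 2 or HSF2oe control replicate 2 (up to 0.113). NDUFAB1 and NDUFAF2 were at 0.03 and 0.05 under library totals alone, where the median of all genes was -0.22.

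HSF2 overexpression in control medium raised 1 of 91 members, NDUFA5, and lowered 2, COX7A1 and COX5B (4.88% of all genes rose and 7.22% fell). Most members nevertheless had a slightly negative value: 70 of 91 were below 0, with a median of -0.10 against -0.00 for all genes. All 4 subunits of complex II, all 9 of complex III and all 11 of complex IV were below 0, with medians of -0.11, -0.09 and -0.17, as were 14 of 17 of complex V (-0.13) and 24 of 37 of complex I (-0.07). These single values mostly did not pass the test and are not independent of each other, since all share the same 4 libraries. Under library totals alone, which shift all genes alike, the members' median was -0.00 and that of all genes 0.09. The 8 assembly factors did not share it, with 5 above and 3 below 0 and a median of 0.06.

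Under TGF-β, HSF2 overexpression raised 2 members, NDUFAF4 and NDUFAF6, and lowered 2, COX7A1 and NDUFA4L2 (9.60% of all genes rose and 11.9% fell). The 4 are assembly factors and isoforms. The 78 subunits had a median of -0.02, and 7 of them had an unadjusted p below 0.05 in edgeR, against 5509 of 16008 genes. Averaged over both media, 11 of 91 members were called: NDUFA5, NDUFAF4 and NDUFAF6 rose, and COX7A1, NDUFA4L2, NDUFA4, COX5B, NDUFAF3, NDUFA8, NDUFA13 and ATP5IF1 fell. The shares of 3 of 91 and 8 of 91 stand against 15.2% and 17.3% of all genes. DESeq2 gave 2 rises and 7 falls among the members, and 2121 rises and 2625 falls among all 16008 genes. Library totals alone gave 11 rises and 2 falls (27.7% of all genes rose and 10.6% fell), with the median of all genes at 0.14. COX7A1 and NDUFA4L2 fell and NDUFA5, NDUFAF4 and NDUFAF6 rose under both scalings, whereas the other falls were lost under library totals.

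In complex IV, COX7A1, NDUFA4L2, NDUFA4 and COX5B fell on average. COX7A1 measured 18.4 and 18.4 CPM in Mock control, 18.9 and 23.4 CPM in Mock TGF-β, 12.4 and 13.6 CPM in HSF2oe control and 12.6 and 14.1 CPM in HSF2oe TGF-β. All 4 HSF2oe libraries lay below all 4 Mock libraries. The averaged log2 fold change was -0.58 ± 0.09 (SE; adjusted p = 4.56e-04, edgeR's quasi-likelihood test), and it held in each of 15 alternatives. Within media it was -0.50 ± 0.13 (adjusted p = 0.0255, edgeR) and -0.67 ± 0.13 (adjusted p = 0.0037, edgeR). The first was lost without any 1 of its own 4 libraries (adjusted p from 0.0574 to 0.208) and under library totals (adjusted p = 0.0548), and the second without Mock TGF-β replicate 2 (adjusted p = 0.0601). COX7A2, the other isoform, measured 41.3 to 48.2 CPM in Mock and 37.3 to 45.4 CPM in HSF2oe libraries, which overlap, and its averaged log2 fold change was -0.12 ± 0.07 (adjusted p = 0.204, edgeR). In TPM, COX7A1 made up 56.1% to 62% of the pair in Mock libraries and 47.8% to 54.5% in HSF2oe libraries. By counts it was the lesser of the 2, with 28% to 33.2% in Mock and 21.8% to 26.8% in HSF2oe libraries. The shares in TPM thus depend on the gene lengths in the count table, 586 bases for COX7A1 and 1922 for COX7A2. COX7A1 lies on chromosome 19 at 36150922 to 36152449 (minus strand) and shares no exonic base with another gene.

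**Figure D4:**
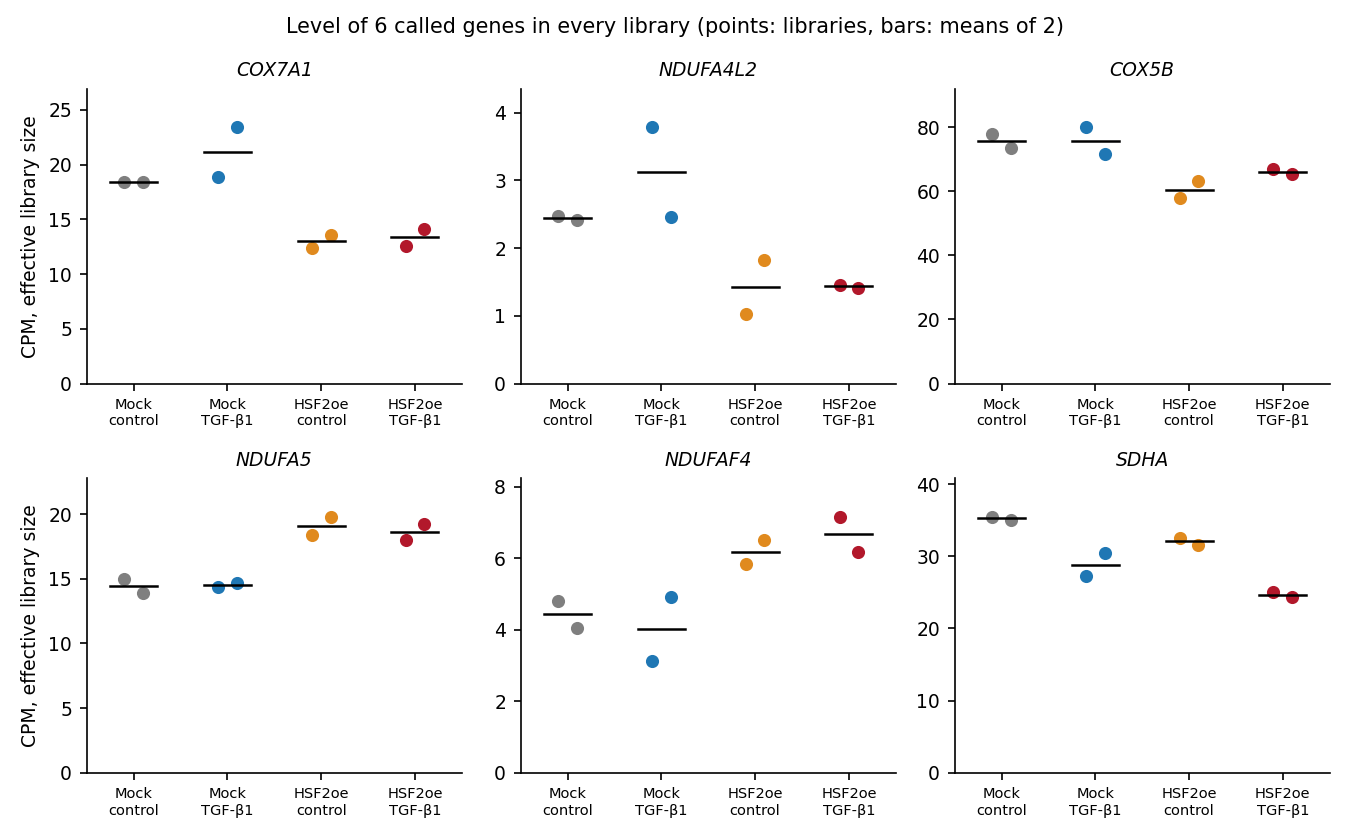
CPM, scaled by effective library size, of 6 called genes in every library (vertical axes from 0); points are libraries and bars means of 2. COX7A1 and NDUFA4L2 are lower and NDUFA5 and NDUFAF4 higher in all 4 HSF2oe libraries than in any Mock library, and SDHA is lower with TGF-β in both kinds of cell.

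NDUFA4L2, a paralog of NDUFA4 known as a HIF target that restrains respiration, was a low transcript here. Its level was 2.47 and 2.41 CPM in Mock control, 3.78 and 2.46 CPM in Mock TGF-β, 1.03 and 1.83 CPM in HSF2oe control and 1.46 and 1.41 CPM in HSF2oe TGF-β, from 32 to 85 counts per library. Again no HSF2oe library reached a Mock library. The averaged log2 fold change of -0.93 ± 0.23 (adjusted p = 0.0084, edgeR's quasi-likelihood test) was the largest in size among the 11 members called on average and held in each of 15 alternatives. Under TGF-β it was -1.10 ± 0.34 (adjusted p = 0.0344, edgeR), lost without Mock TGF-β replicate 1 or either HSF2oe TGF-β library (adjusted p from 0.0985 to 0.21) and under library totals (adjusted p = 0.057). NDUFA4 itself fell by 0.22 ± 0.07 on average (adjusted p = 0.0228, edgeR), although its 4 HSF2oe libraries (59.9 to 75.5 CPM) overlapped the 4 Mock ones (69.4 to 87.7 CPM). Without Mock control replicate 1, Mock TGF-β replicate 2, HSF2oe control replicate 1 or HSF2oe TGF-β replicate 1 that call was lost (adjusted p from 0.0702 to 0.104).

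COX5B, a zinc-binding subunit of complex IV whose promoter with 2 ETS matches is printed above, measured 77.9 and 73.5 CPM in Mock control, 80 and 71.8 CPM in Mock TGF-β, 57.8 and 63.4 CPM in HSF2oe control and 66.9 and 65.3 CPM in HSF2oe TGF-β. The HSF2oe libraries were all below the Mock libraries. The log2 fold change was -0.32 ± 0.10 (adjusted p = 0.0485, edgeR's quasi-likelihood test) in control medium and -0.26 ± 0.07 (adjusted p = 0.0117) on average. The first call was lost without any 1 of the 8 libraries (adjusted p from 0.0505 to 0.328) and the second without Mock TGF-β replicate 1 or HSF2oe control replicate 1 (adjusted p of 0.0506 and 0.0623). Under library totals neither passed (adjusted p = 0.166 and 0.233). The remaining complex IV subunits, COX4I1 (-0.04 ± 0.07), COX6A1 (0.08 ± 0.09), COX6B1 (-0.13 ± 0.08) and COX8A (-0.12 ± 0.07) among them, did not pass on average.

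In complex I, 1 subunit rose with HSF2 and 2 fell. NDUFA5, an accessory subunit of the matrix arm, measured 15 and 13.9 CPM in Mock control, 14.4 and 14.7 CPM in Mock TGF-β, 18.4 and 19.8 CPM in HSF2oe control and 18 and 19.2 CPM in HSF2oe TGF-β. All 4 HSF2oe libraries exceeded all 4 Mock libraries, by 0.38 ± 0.08 on the log2 scale (adjusted p = 0.00351, edgeR's quasi-likelihood test), and the call held in each of 15 alternatives. In control medium it was 0.41 ± 0.11 (adjusted p = 0.0345, edgeR), lost without any 1 of those 4 libraries (adjusted p from 0.0806 to 0.231). DESeq2 (adjusted p = 0.0554) and edgeR with no low-count filter (adjusted p = 0.0547) did not call it either. Under TGF-β the value was 0.35 ± 0.12 (adjusted p = 0.0513, edgeR). NDUFA5 lies on chromosome 7 at 123536997 to 123557904 (minus strand) and has an NRF1 match in the promoter shown. NDUFA8, which faces the intermembrane space, fell by 0.24 ± 0.07 (25.4 to 28.3 CPM in Mock and 22.2 to 23 CPM in HSF2oe libraries), and NDUFA13, also known as GRIM-19, by 0.34 ± 0.11 (9.59 to 12.8 against 8.25 to 9 CPM). Their adjusted p-values in edgeR were 0.0228 and 0.0353. The NDUFA8 call was lost without any library other than Mock control replicate 1 and Mock TGF-β replicate 1 (adjusted p from 0.0535 to 0.102), and that of NDUFA13, which shares 21% of its exonic bases with another gene, without any library other than Mock control replicate 2 (adjusted p from 0.0501 to 0.164), by DESeq2 (adjusted p = 0.0512) and with thinned counts (adjusted p = 0.0597).

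The complex I assembly factors moved in both directions. NDUFAF4 and NDUFAF3 are known to act together on an early matrix-arm intermediate. NDUFAF4 rose and NDUFAF3 fell. NDUFAF4 measured 4.8 and 4.06 CPM in Mock control, 3.13 and 4.92 CPM in Mock TGF-β, 5.84 and 6.51 CPM in HSF2oe control and 7.16 and 6.18 CPM in HSF2oe TGF-β, and the lowest HSF2oe value exceeded the highest Mock value. Its averaged log2 fold change was 0.60 ± 0.15 (adjusted p = 0.00902, edgeR's quasi-likelihood test), held in each of 15 alternatives. Under TGF-β it was 0.71 ± 0.22 (adjusted p = 0.0364, edgeR), lost without Mock TGF-β replicate 1 or HSF2oe TGF-β replicate 1 (adjusted p of 0.218 and 0.177). NDUFAF3 was far more abundant, at 66.7 and 63.3 CPM in Mock control, 65.6 and 63.9 CPM in Mock TGF-β, 51 and 58.7 CPM in HSF2oe control and 54.1 and 55 CPM in HSF2oe TGF-β, and fell by 0.25 ± 0.07 (adjusted p = 0.0157, edgeR). That fall was lost without Mock control replicate 1, HSF2oe control replicate 1 or HSF2oe TGF-β replicate 1 (adjusted p from 0.0555 to 0.0894) and under library totals (adjusted p = 0.292).

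NDUFAF6, needed early in complex I assembly, stood at 16.4 and 14.4 CPM in Mock control, 13.7 and 11.4 CPM in Mock TGF-β, 17.5 and 16.8 CPM in HSF2oe control and 17.3 and 15.9 CPM in HSF2oe TGF-β. Within each medium the HSF2oe libraries were the higher pair. The rise was 0.41 ± 0.14 under TGF-β (adjusted p = 0.0471, edgeR's quasi-likelihood test) and 0.28 ± 0.09 on average (adjusted p = 0.0338). Each was lost without 5 single libraries, in both cases Mock TGF-β replicate 2, both HSF2oe control libraries and HSF2oe TGF-β replicate 1, and further HSF2oe TGF-β replicate 2 in the first and Mock control replicate 2 in the second (adjusted p up to 0.323 and 0.147). DESeq2 called neither (adjusted p = 0.0736 and 0.062). In complex V, the inhibitor ATP5IF1, which blocks the reverse reaction of the synthase, fell by 0.25 ± 0.08 on average (adjusted p = 0.025, edgeR). It measured 65.8 and 70.5 CPM in Mock control, 64.5 and 57.4 CPM in Mock TGF-β, 55 and 58.3 CPM in HSF2oe control and 47.5 and 56.4 CPM in HSF2oe TGF-β, so the Mock and HSF2oe libraries overlapped over both media but not within either. Leaving out Mock control replicate 2, Mock TGF-β replicate 1, HSF2oe control replicate 1 or HSF2oe TGF-β replicate 1 ended the call (adjusted p from 0.0922 to 0.137), as did library totals (adjusted p = 0.338).

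Core subunits of several complexes did not pass the test. ATP5F1B measured 517 to 560 CPM in Mock and 506 to 536 CPM in HSF2oe libraries, and its averaged log2 fold changes were -0.04 ± 0.07 with HSF2oe and 0.02 ± 0.07 with TGF-β. ATP5F1A, the α subunit, had -0.08 ± 0.06 and -0.04 ± 0.06, and none of the 17 complex V subunits passed in any comparison by edgeR, DESeq2 or limma, with at most 2 of 17 at an unadjusted p below 0.05. In complex III, CYC1 had 0.02 ± 0.08 and -0.06 ± 0.08, and the core protein UQCRC1, at 168 to 220 CPM, had -0.14 ± 0.07 and 0.14 ± 0.07. None of the 9 subunits of that complex passed by any of these tools, with at most 1 of 9 at an unadjusted p below 0.05. NDUFS1, which carries iron-sulfur clusters of the complex I matrix arm, had -0.00 ± 0.07 and 0.05 ± 0.07, and NDUFV1, which binds NADH, -0.12 ± 0.07 and -0.03 ± 0.07. A value that misses the threshold does not show that the groups are equal. On counts simulated for the TGF-β comparison in Mock cells, 71.9% of genes changed by 1 on the log2 scale were called and 21.9% of those changed by 0.5. There 96 of 15474 genes changed at each size, far fewer than the 2212 of 16008 called in the data. They were drawn from all expression levels with a single spread, so these rates do not give the power for the members.

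No member passed the test of a different TGF-β response in Mock and HSF2oe cells. It called 0 of 91 members and 0 of all 16008 genes (0% of all genes) in edgeR, and 0 members had an unadjusted p below 0.05, against 977 of all genes. DESeq2 called 0 members and 23 genes. The members' median difference was 0.07 on the log2 scale, with 64 of 91 above 0, and the best expressed ones (at least 10 CPM) ranged from -0.31 to 0.32.

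Genes that build and regulate the complexes were read from lists that were chosen with earlier results of these data known. Among 56 assembly factors (the 8 NDUFAF genes included), HSF2oe raised 9 and lowered 4 on average (15.2% and 17.3% of all genes), with a median of 0.07 against 0.00 for all genes. SURF1, needed for complex IV assembly, fell from 15.4 to 21.1 CPM in Mock to 12 to 12.9 CPM in HSF2oe libraries (-0.49 ± 0.09, adjusted p = 0.00157, edgeR's quasi-likelihood test). COX19 and CMC2, small proteins linked to copper delivery and complex IV assembly, rose by 0.41 ± 0.09 (adjusted p = 0.00418) and 0.37 ± 0.08 (adjusted p = 0.00342), and these 3 calls held in each of 15 alternatives. With TGF-β in Mock cells 2 of the 56 fell and 0 rose (6.50% and 7.32% of all genes). They were CMC1, another complex IV factor (-0.60 ± 0.15, adjusted p = 0.0199), and LYRM7, which acts on the Rieske protein of complex III (-0.48 ± 0.14, adjusted p = 0.0335). Both lost the call without Mock control replicate 1 or Mock TGF-β replicate 2, CMC1 also without Mock TGF-β replicate 1 and LYRM7 without Mock control replicate 2 (adjusted p from 0.073 to 0.255).

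Regulators of the respiratory genes were read in the same way. Of 23 tested, HSF2oe raised 3 and lowered 1 in control medium (4.88% and 7.22% of all genes), raised 7 and lowered 1 under TGF-β (9.60% and 11.9%), and raised 7 and lowered 3 on average (15.2% and 17.3%; median 0.14, against 0.00 for all genes). Among genes of at least 10 CPM, 42.8% were called on average in either direction. NRF1 measured 15.2 and 15.1 CPM in Mock control, 12.2 and 9.79 CPM in Mock TGF-β, 18.8 and 17.7 CPM in HSF2oe control and 17.6 and 17.8 CPM in HSF2oe TGF-β. All 4 HSF2oe values exceeded all 4 Mock values, by 0.48 ± 0.09 on the log2 scale (adjusted p = 0.00141, edgeR's quasi-likelihood test). TFAM showed the same order, with 18 and 16.4 CPM, 10.4 and 12.1 CPM, 20.2 and 20.4 CPM, and 19.7 and 18.3 CPM in the same groups, and rose by 0.49 ± 0.09 (adjusted p = 8.55e-04, edgeR). Within media, NRF1 had 0.27 ± 0.12 in control medium (adjusted p = 0.184, edgeR) and 0.70 ± 0.13 under TGF-β (adjusted p = 0.00273), and TFAM had 0.24 ± 0.12 (adjusted p = 0.211) and 0.75 ± 0.13 (adjusted p = 0.00138), so neither passed in control medium. In Mock cells TGF-β lowered both, NRF1 by 0.47 ± 0.13 (adjusted p = 0.0306) and TFAM by 0.60 ± 0.13 (adjusted p = 0.00581). In HSF2oe cells the values were -0.04 ± 0.12 and -0.09 ± 0.12, but the difference between the responses did not pass (adjusted p = 0.805 and 0.729, edgeR). The TGF-β call of NRF1 was lost without either Mock control library or Mock TGF-β replicate 2 (adjusted p from 0.102 to 0.284), and that of TFAM without Mock control replicate 1 or Mock TGF-β replicate 1 (adjusted p of 0.0523 and 0.0524).

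MYC, which is known to promote mitochondrial gene expression, rose from 109 to 134 CPM in Mock to 167 to 240 CPM in HSF2oe libraries (0.70 ± 0.09 on average, adjusted p = 8.30e-05, edgeR's quasi-likelihood test). PPRC1, a coactivator of the PGC-1 family, rose from 65.5 to 72.7 CPM to 87.3 to 95.1 CPM (0.43 ± 0.06, adjusted p = 2.88e-04). The hypoxia-inducible factor EPAS1 fell from 166 to 197 CPM to 89.3 to 128 CPM (-0.69 ± 0.09, adjusted p = 9.30e-05). All 3 held in each of 15 alternatives. HIF1A, at 220 to 256 CPM in Mock and 192 to 208 CPM in HSF2oe libraries, fell by 0.25 ± 0.07 (adjusted p = 0.0147), a call lost under library totals (adjusted p = 0.264) and without Mock control replicate 2, Mock TGF-β replicate 2, HSF2oe control replicate 1 or HSF2oe TGF-β replicate 1 (adjusted p from 0.0548 to 0.081). GABPA (0.22 ± 0.11, sharing exonic bases with the member ATP5PF) and YY1 (0.13 ± 0.06) did not pass on average. PPARGC1A, the founding PGC-1 coactivator, never exceeded 0.13 CPM and was not tested.

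**Figure D5:**
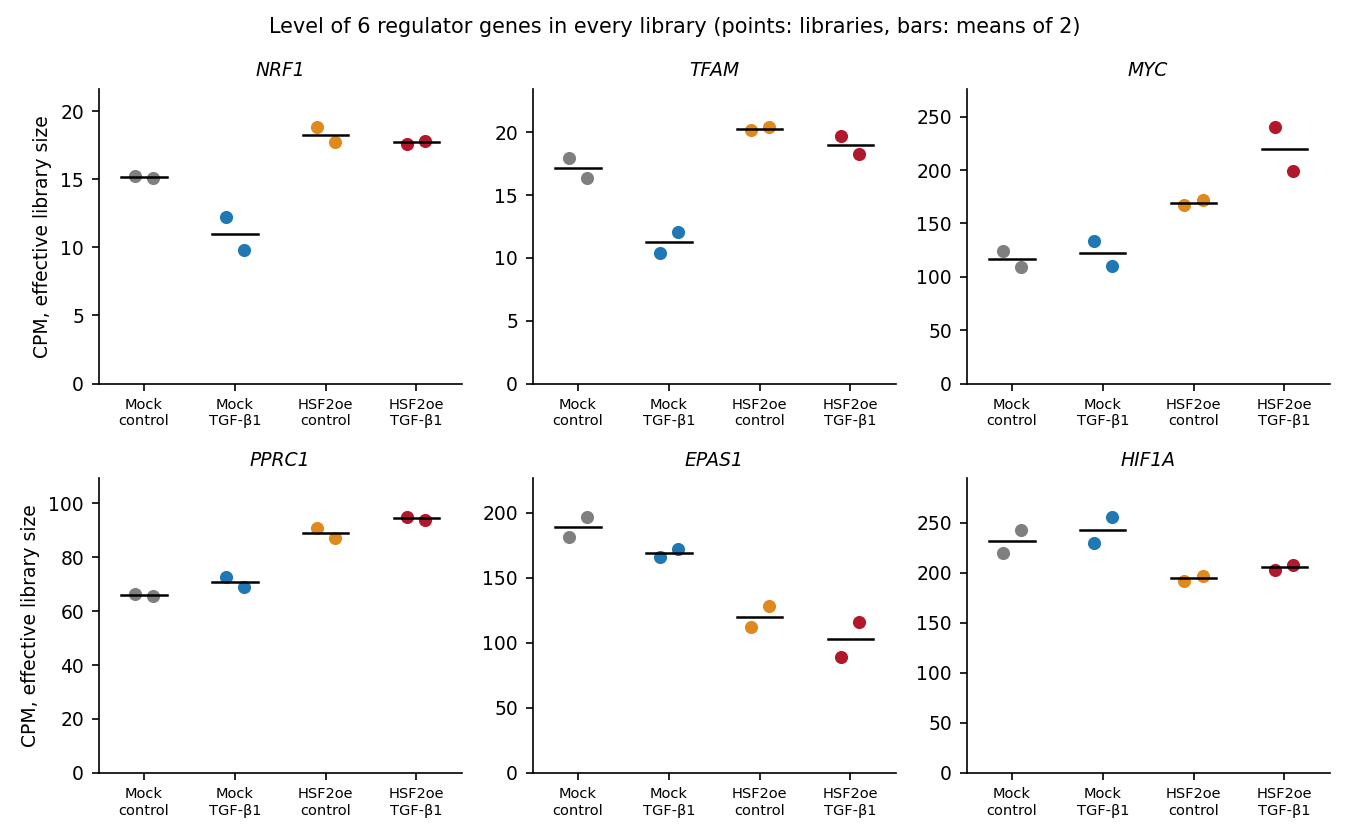
CPM, scaled by effective library size, of 6 regulator genes in every library (vertical axes from 0); points are libraries and bars means of 2. NRF1, TFAM, MYC and PPRC1 are higher and EPAS1 and HIF1A lower in all 4 HSF2oe libraries than in any Mock library.

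The 13 mitochondrially encoded subunits summed to 30150 and 32009 CPM in Mock control, 44333 and 38984 CPM in Mock TGF-β, 37620 and 29752 CPM in HSF2oe control and 43821 and 25365 CPM in HSF2oe TGF-β. The HSF2oe TGF-β libraries stood far apart, replicate 2 being the lowest of all 8. With TGF-β in Mock cells their median log2 fold change was 0.41 (-0.00 for all genes). Here 1 of 13 rose (7.32% of all genes did), MT-ND6 (0.54 ± 0.17, adjusted p = 0.0482, edgeR's quasi-likelihood test). That call was lost under 9 of 16 alternatives, library totals (adjusted p = 0.183) and leaving out Mock control replicate 1 (0.324), Mock TGF-β replicate 1 (0.177) or 2 (0.121), or HSF2oe control replicate 1 (0.0554) or 2 (0.0569) among them. With HSF2oe under TGF-β 2 of 13 fell (11.9% of all genes did), MT-ND5 (-0.53 ± 0.17, adjusted p = 0.0436, edgeR) and MT-ND6 (-0.62 ± 0.17, adjusted p = 0.0193, edgeR). Without HSF2oe TGF-β replicate 2 neither call held. Each was also lost without either Mock TGF-β library (adjusted p from 0.0611 to 0.141). Without strand in the counting, reads of MT-ND6 and of the genes on the other strand of mitochondrial DNA cannot be told apart where they overlap.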

How the data were processed

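mRNA sequencing was analysed in 8 libraries. The authors deposited whole-number counts of read pairs per gene, made per the file headers with featureCounts 2.0.1 on GENCODE release 38, with both ends aligned and without strand (the kit in the labels is a stranded one). Per the submitters' processing notes, STAR 2.7.9a, the build GRCh38 and edgeR 3.34.1 were used. The authors also deposited log2 CPM values, used only as an alternative. The rule for the members goes by gene name and used no measured value, but it and all lists were chosen with earlier results of these data known.

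Counts were tested with edgeR 4.0.16 (R 4.3.3): filterByExpr by group kept 16008 genes, libraries were scaled by TMM, and the quasi-likelihood fit took in all 8 libraries with 1 coefficient for each group (4 residual and 9.21 prior degrees of freedom, common biological coefficient of variation 9.91%). The 2-sided p-values were adjusted over all genes (Benjamini-Hochberg) and calls made at 0.05. A standard error (SE) is the size of the log2 fold change over the root of its F statistic. With 2 libraries a group, p-values rest on a spread shared by the groups. Counting limits (3 counts) cover counting error only. The procedure was tested on simulated counts, where 0.0196% of unchanged genes were called. The chi-square per degree of freedom between replicates was 12.5 to 26.8, where sampling noise alone gives about 1, so none was counted as a duplicate. TPM used the gene lengths of the count table, and exon sharing its exon coordinates.

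Named members were 20 fixed ones, up to 8 rises and 8 falls per comparison by p, and the highest and lowest TPM in each complex. Other named genes were fixed ones and up to 3 per list and comparison. Genes that illustrate a counting limit or the order by counts were named after their values were seen. Alternatives were DESeq2 1.42.0, limma 3.58.1 on the deposited log2 values, other scalings and filters, a replicate block, thinned counts and leaving out each library.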

Additional observations from a re-analysis of the deposited data

How the results depend on the processing

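Over the 7 comparisons, the main counts of called members were 0 (TGF-β in Mock), 1 (TGF-β in HSF2oe), 3 (HSF2oe in control medium), 4 (HSF2oe under TGF-β), 0 (difference of the TGF-β effects), 5 (TGF-β averaged) and 11 (HSF2oe averaged). Library totals alone gave 26, 1, 1, 12, 0, 29 and 13, where 4493, 2045, 2239, 4599, 0, 6061 and 6131 of all 16008 genes were called. They also made ATP5F1B lower with TGF-β on average (-0.20 on the log2 scale). That scaling put the median log2 fold change of all genes at -0.27, -0.17, 0.09, 0.19, 0.10, -0.22 and 0.14. The main fit did not pair libraries by replicate number. The correlations of same-numbered deviations were low but all above 0, from 0.0498 to 0.163, which does not settle whether same-numbered libraries belong together. With the replicate number as a block, the counts were 3, 4, 7, 10, 0, 9 and 17. Over all 16008 genes the block called 3350, 2366, 3614, 4900, 78, 4389 and 6455, against 2212, 1323, 1937, 3449, 0, 3228 and 5199 without it. The difference of the TGF-β effects called 83 genes with no low-count filter and 23 with DESeq2. With no low-count filter, TGF-β in HSF2oe called 0 members, HSF2oe in control medium 1 and TGF-β averaged 3, against 1707, 2441 and 3539 of 31802 genes. Fitting only the libraries compared gave 0 for TGF-β in HSF2oe (1091 of 15424 genes) and 2 for HSF2oe under TGF-β (3025 of 14642 genes). TGF-β averaged called 2 with DESeq2 and 3 with limma on the deposited log2 CPM, with at least 1 CPM in every library and with thinned counts. Without members sharing 20% or more of their exonic bases, a choice made after seeing the data, TGF-β in HSF2oe called 0. Leaving out single libraries, where a lone library is assumed to vary like the other groups, gave 0 to 1 for TGF-β in HSF2oe, 0 to 2 for HSF2oe in control medium, 1 to 4 for HSF2oe under TGF-β, 1 to 5 for TGF-β averaged and 4 to 9 for HSF2oe averaged. The lowest of these for HSF2oe averaged, 4 and 5, came without HSF2oe control replicate 1 and HSF2oe TGF-β replicate 1. The causes were not tested. For single named genes, 7079 values kept their direction and side of the threshold, 366 lost and 164 gained a call and 1 reversed.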

Other observations

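Genes that feed or serve the respiratory chain were read from lists chosen with earlier results of these data known. SLC25A4, the ADP/ATP carrier best known from heart and skeletal muscle, measured 18.2 and 12.9 CPM in Mock control, 31.5 and 30.9 CPM in Mock TGF-β, 11 and 15.2 CPM in HSF2oe control and 21.8 and 24.1 CPM in HSF2oe TGF-β. All 4 TGF-β libraries exceeded all 4 control libraries, by 0.91 ± 0.12 on the log2 scale (adjusted p = 1.22e-04, edgeR's quasi-likelihood test), and the call held in each of 15 alternatives. The rise was 1.01 ± 0.17 in Mock (adjusted p = 0.00135, edgeR) and 0.80 ± 0.17 in HSF2oe cells (adjusted p = 0.00972), the latter lost without HSF2oe control replicate 1 or HSF2oe TGF-β replicate 2 (adjusted p of 0.11 and 0.0563). The test of their difference did not pass (-0.21 ± 0.24, adjusted p = 0.94). VDAC2, an outer membrane channel, was the other of 8 tested exchange genes that rose with TGF-β on average (0.36 ± 0.07, adjusted p = 0.00164), a call lost under library totals (adjusted p = 0.134), and 0 fell (10.1% of all genes rose and 10.0% fell).

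Of 23 genes of pyruvate dehydrogenase and the citric acid cycle, HSF2oe raised 1 and lowered 4 on average (15.2% and 17.3% of all genes), with a median of -0.14. PDK1, a kinase that inhibits pyruvate dehydrogenase, ranged from 18.5 to 28.2 CPM in Mock and from 9.99 to 16.3 CPM in HSF2oe libraries (-0.85 ± 0.15, adjusted p = 8.28e-04, edgeR), and IDH3A, a subunit of isocitrate dehydrogenase, rose by 0.40 ± 0.09 (adjusted p = 0.00393). TGF-β raised 1 and lowered 4 on average (10.1% and 10.0% of all genes), OGDH of the oxoglutarate dehydrogenase complex by 0.32 ± 0.06 (adjusted p = 0.00239) and pyruvate carboxylase, PC, by 0.39 ± 0.08 (adjusted p = 0.00326) among the latter. These 4 calls held in each of 15 alternatives.

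Of 23 glycolysis genes, HSF2oe raised 1 and lowered 6 on average (15.2% and 17.3% of all genes), with a median of -0.14. The glucose transporter SLC2A1 fell by 0.49 ± 0.12 (adjusted p = 0.00683, edgeR) and the enolase ENO2 by 0.38 ± 0.07 (adjusted p = 0.00191), both in each of 15 alternatives. TGF-β in Mock cells raised 3 and lowered 1 (7.32% and 6.50% of all genes), and the phosphofructokinase PFKP rose by 0.56 ± 0.09 (adjusted p = 0.001). Of 15 genes of cytochrome c and ubiquinone synthesis, HSF2oe raised 1 and lowered 2 on average (15.2% and 17.3% of all genes). PDSS1, which makes the ubiquinone side chain, rose by 0.51 ± 0.15 (adjusted p = 0.0193, lost without Mock control replicate 2 or Mock TGF-β replicate 2, with adjusted p of 0.0785 and 0.0956), whereas cytochrome c itself, CYCS, had 0.10 ± 0.07 (adjusted p = 0.329).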
